A study of Mus musculus with 12 samples.

Results

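The collagen and laminin chains are the structural proteins of the splenic framework, and 55 of the 21004 genes in the deposited table encode one. They were found by symbol, as every gene named Col, number, a, number (44 collagen chains) or Lama, Lamb or Lamc with a number (11 laminin chains). Expression was measured by RNA sequencing of whole spleens from 8-week-old ICR mice, an outbred stock, in 12 libraries that form 4 groups of 3: busulfan plus L.J. at 10 mg/kg, L.J. at 10 mg/kg alone, busulfan alone, and a group labelled control. Busulfan is an alkylating agent that is toxic to blood-forming cells and is used to condition recipients before bone marrow transplantation. The labels name no genotype, and they do not spell out L.J., the dose and timing of busulfan, or what the controls were given. The series text names FMT as the treatment under study in spleens that busulfan had damaged, without spelling it out, and no sample label mentions it.

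Collagens are secreted as helical trimers. Types I, III and V form banded fibrils, type XIV decorates their surface, type VI forms beaded filaments, and type IV makes the network of basement membranes together with laminins, which are trimers of an alpha, a beta and a gamma chain. In the spleen a mesh of reticular fibres rich in type III collagen carries the white and red pulp, and basement membranes surround the blood vessels. The fibrillar chains come mainly from fibroblastic reticular cells, and the type IV chains from endothelial, smooth muscle and reticular cells.

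Values are FPKM, fragments per kilobase of transcript and scaled to the mapped fragments of the library, so levels can be set side by side between chains. Of the 55 chains, 29 averaged at least 1 FPKM in at least 1 group and were tested, and the other 26 (20 collagen and 6 laminin chains) were not. Of the 29, 24 reached that mean in every group, while Col12a1, Col13a1, Col15a1, Col6a5 and Lama4 averaged less in at least 1 group. Col12a1 reached it only with busulfan plus L.J., Col13a1 only with busulfan and Col6a5 only with L.J. The tested chains are therefore not all chains. No single value of the 26 untested chains exceeded 1.45 FPKM, and 9 of them averaged below 0.1 FPKM. Over all 55, 6 are listed at 0 in at least 1 library. Tested were 7 of 11 fibrillar chains, 4 of 9 FACIT chains, which attach to the surface of fibrils, and 2 of 6 basement membrane collagens. Of 7 beaded filament chains, the type VI chains and Col28a1, 5 were tested, all of type VI. Of the laminins, 2 of 5 alpha, 2 of 3 beta and 1 of 3 gamma chains were tested. Col1a2 was the most abundant chain with a mean over all libraries of 30.9 FPKM, followed by Col4a1 at 25.2 FPKM, Col3a1 at 24.0 FPKM, Col1a1 at 21.6 FPKM, Col14a1 at 20.5 FPKM and Col4a2 at 18.7 FPKM. These 6 chains made up 61.1% of the FPKM summed over all chains.

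The libraries carried the markers of a spleen. The B cell genes Cd79a and Ms4a1, the T cell gene Cd3e and the red pulp macrophage gene Spic were present in every library. The stromal markers of the fibrils (Col1a1, Col1a2, Col3a1 and Col14a1) were likewise present in all 12, at 11.5 FPKM or more. Deposited values summed to between 511876 and 580364 FPKM per library, 12249 to 13129 genes reached 1 FPKM, and libraries of 1 group correlated at 0.926 to 0.988 over 12 pairs. Pancreatic acinar genes were also present. Their summed level, over 12 genes, was 14.4, 13.2 and 175.4 FPKM in the busulfan plus L.J. libraries, 823.6, 83.6 and 5553 FPKM in the L.J. libraries, 50350, 4403 and 189 FPKM in the busulfan libraries and 7.68, 7.88 and 8.00 FPKM in the control libraries. FPKM is scaled within a library, so such a share lowers all other genes of that library, and the calls between busulfan plus L.J. and busulfan are also given without busulfan 1, busulfan 2 and L.J. 3.

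The comparison of busulfan plus L.J. with busulfan alone asks what L.J. treatment changed in busulfan-treated spleens. It is the comparison in which chains passed the test. Col14a1, Col4a1, Col3a1 and Col1a2 were higher in the spleens given both agents, by 0.64 to 1.00 on the scale of log2(FPKM + 1), and no chain was lower past the threshold. These 4 of 29 tested chains are 13.8%, where 1.66% of all 13138 tested genes were called, 1.08% higher and 0.578% lower. Leaving out 1 library at a time gave 0 to 6 called chains, with 0 without busulfan plus L.J. 1 and 0 without busulfan plus L.J. 2. The test was limma on log2(FPKM + 1) with Benjamini-Hochberg adjustment over all tested genes, and a gene was called at an adjusted p under 0.05. Whether the 3 libraries within a group are separate mice is not labelled, so the p-values measure the spread between libraries. In whole spleens, fewer cells of a type and less RNA per cell cannot be told apart.

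**Figure D1:**
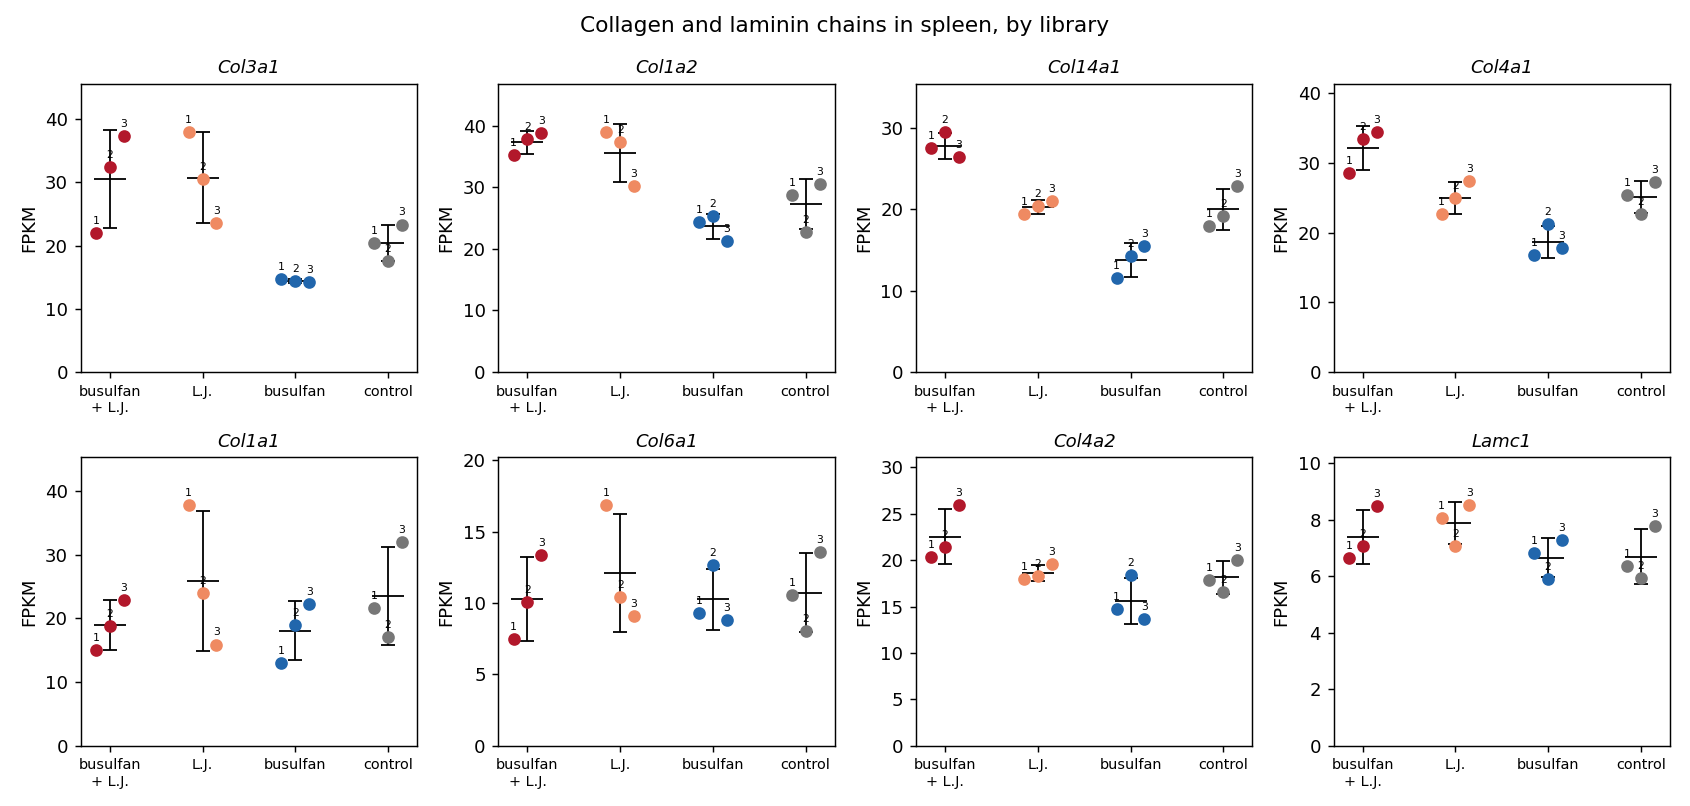
FPKM of Col3a1, Col1a2, Col14a1, Col4a1, Col1a1, Col6a1, Col4a2 and Lamc1 in each library (points numbered by replicate). Each panel gives the group mean and SD, n = 3 per group, for busulfan plus L.J., L.J., busulfan and control. The busulfan libraries lie lowest for Col3a1, at 14.2 to 14.7 FPKM, while Col1a1 overlaps in all groups.

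Col14a1 encodes the type XIV chain, which sits on the surface of type I fibrils and regulates their diameter (gene 12818, chromosome 15, 55307750 to 55520803, plus strand; coordinates here are those of the GENCODE annotation on mm10, counted from 1). Col14a1 measured 27.5, 29.5 and 26.4 FPKM in the busulfan plus L.J. libraries, 19.4, 20.5 and 21.1 FPKM in the L.J. libraries, 11.5, 14.3 and 15.5 FPKM in the busulfan libraries and 17.9, 19.2 and 22.8 FPKM in the control libraries. All 3 libraries with both agents were above every library of the other groups, and the 3 busulfan libraries were below all others. The difference between busulfan plus L.J. and busulfan was 0.97 (SE 0.12, limma adjusted p = 0.0135), the smallest p of any chain.

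Col3a1 encodes the single chain of type III collagen, the main collagen of reticular fibres (gene 12825, chromosome 1, 45311538 to 45349706, plus strand). In the busulfan plus L.J. libraries Col3a1 was at 21.98, 32.4 and 37.3 FPKM, in the L.J. libraries at 37.99, 30.6 and 23.6 FPKM, in the busulfan libraries at 14.7, 14.3 and 14.2 FPKM and in the control libraries at 20.4, 17.5 and 23.3 FPKM. The busulfan libraries were nearly level and lay below all other libraries, while the libraries given L.J., with or without busulfan, spread widely and overlapped each other. The difference between busulfan plus L.J. and busulfan was 1.00 (SE 0.20, limma adjusted p = 0.0407).

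Col1a2 and Col1a1 encode the partner chains of type I collagen, the most abundant collagen of the body (Col1a2: gene 12843, chromosome 6, 4504814 to 4541544, plus strand; Col1a1: gene 12842, chromosome 11, 94936224 to 94953042, plus strand). Col1a2 stood at 35.2, 37.8 and 38.9 FPKM with busulfan plus L.J., 39.02, 37.4 and 30.2 FPKM with L.J., 24.3, 25.3 and 21.3 FPKM with busulfan and 28.8, 22.7 and 30.5 FPKM in controls. Every Col1a2 value with busulfan plus L.J. exceeded every busulfan value, by a margin larger than the range within the busulfan libraries, and the difference was 0.64 (SE 0.13, limma adjusted p = 0.0437). Its partner Col1a1 stood at 15.1, 18.8 and 22.9 FPKM with busulfan plus L.J., 37.7, 24.03 and 15.9 FPKM with L.J., 13.04, 18.9 and 22.2 FPKM with busulfan and 21.6, 17.02 and 32.03 FPKM in controls. The Col1a1 values of all 4 groups overlapped, and the difference between busulfan plus L.J. and busulfan was 0.08 (SE 0.31, limma adjusted p = 0.909), with a 95% confidence interval of -0.60 to 0.76. A log2 difference of the size seen for Col1a2 lies inside that interval, and whether the partner chains differed in response was not tested.

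The level of Col1a1 relative to Col1a2 was 0.429, 0.499 and 0.588 with busulfan plus L.J., 0.966, 0.643 and 0.526 with L.J., 0.536, 0.749 and 1.04 with busulfan, and 0.752, 0.750 and 1.05 in controls. Every library given both agents had a lower ratio than every control library, and the L.J. and busulfan libraries reached into both ranges. The ratio of Col3a1 to Col1a1, chosen after the values were seen, was 1.46, 1.72 and 1.63 with busulfan plus L.J., 1.01, 1.27 and 1.48 with L.J., 1.13, 0.756 and 0.640 with busulfan, and 0.942, 1.03 and 0.728 in controls. Col3a1 was above Col1a1 in all 3 libraries given both agents and in all 3 given L.J. alone. That held in 1 of 3 busulfan libraries and in 1 of 3 control libraries. Both ratios are descriptions, with no test.

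**Figure D2:**
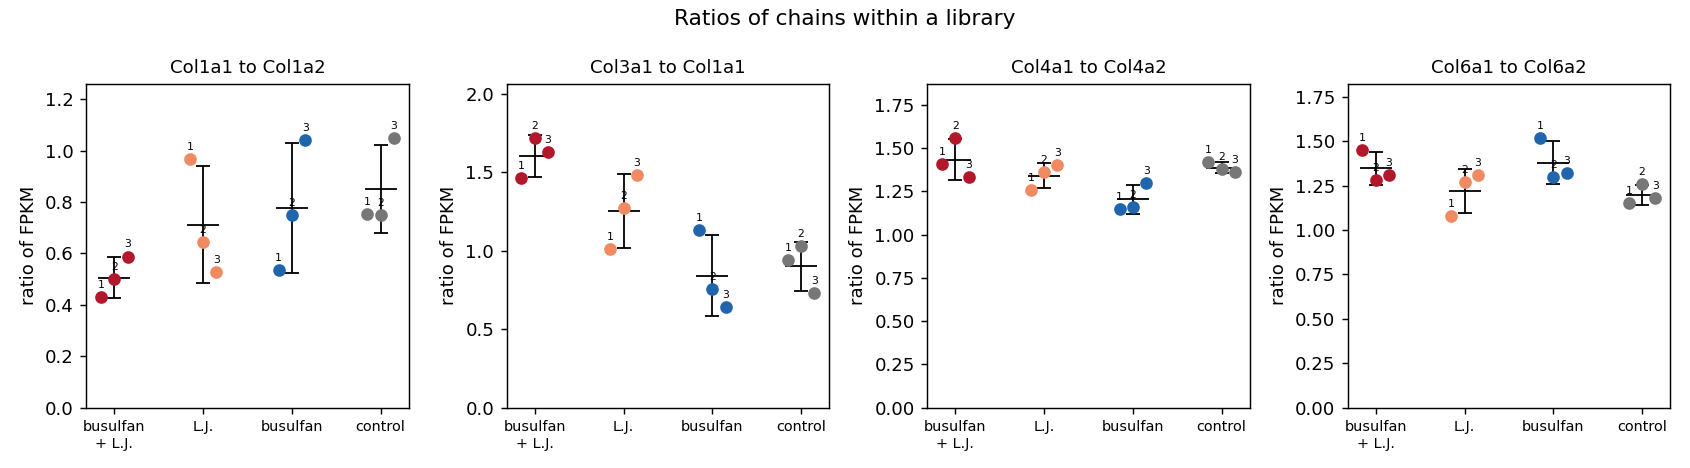
Ratio of FPKM for 4 pairs of chains in each library (points numbered by replicate) with the group mean and SD, n = 3, by group in the order busulfan plus L.J., L.J., busulfan and control. Col1a1 relative to Col1a2 runs from 0.429 to 1.05 over the 12 libraries and is lowest with busulfan plus L.J., at 0.429 to 0.588, a range that also holds an L.J. value of 0.526 and a busulfan value of 0.536.

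Col4a1 and Col4a2 encode the partner chains of the type IV network found in all basement membranes (Col4a1: gene 12826, chromosome 8, 11198423 to 11312826, minus strand; Col4a2: gene 12827, chromosome 8, 11312805 to 11449287, plus strand). Col4a1 measured 28.6, 33.5 and 34.5 FPKM in the busulfan plus L.J. libraries, 22.7, 24.99 and 27.4 FPKM in the L.J. libraries, 16.9, 21.2 and 17.8 FPKM in the busulfan libraries and 25.4, 22.7 and 27.4 FPKM in the control libraries. As for Col14a1, the libraries with both agents were the highest of the 12 and the busulfan libraries the lowest, and busulfan plus L.J. differed from busulfan by 0.76 (SE 0.12, limma adjusted p = 0.0372). Its partner Col4a2 stood at 20.3, 21.4 and 25.9 FPKM with busulfan plus L.J., 17.98, 18.3 and 19.6 FPKM with L.J., 14.7, 18.4 and 13.7 FPKM with busulfan and 17.9, 16.5 and 20.1 FPKM in controls. Col4a2 was also higher in every library with both agents than in any other library, but the busulfan values overlapped those of L.J. and of controls. Its difference between busulfan plus L.J. and busulfan, 0.51 (SE 0.13, limma adjusted p = 0.0630), did not pass the threshold. Col4a1 relative to Col4a2 was 1.41, 1.56 and 1.33 with busulfan plus L.J., 1.26, 1.36 and 1.4 with L.J., 1.15, 1.16 and 1.3 with busulfan, and 1.42, 1.38 and 1.36 in controls.

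The genes of this pair lie head to head on opposite strands of chromosome 8, with annotated starts 21 bases apart at 11312826 and 11312805. Because the gene bodies overlap by 22 bases and the handling of strand is not given in the sources used here, reads from that stretch cannot be assigned to one of them. The 250 bases before the start of Col3a1 and of Col1a2 and the 100 bases around both starts of the Col4a1 and Col4a2 pair are shown for the called chains that have an entry in the RefSeq promoter table (GRCm38.p6, the assembly of mm10), since these chains were higher together. The strand shown is the plus strand, at chr1:45311288-45311537 for Col3a1, chr6:4505368-4505617 for Col1a2 and chr8:11312755-11312854 for the pair. The windows of Col3a1 and Col1a2 end just before the RefSeq start. For Col1a2 that start is 4505618, downstream of the GENCODE start at 4504814, so its window lies inside the gene as GENCODE annotates it. Capitals mark the CCAAT box (CCAAT or ATTGG), the GC box (GGGCGG or CCGCCC) and the TATA box (TATAAA or TTTATA), searched on both strands.
Col3a1: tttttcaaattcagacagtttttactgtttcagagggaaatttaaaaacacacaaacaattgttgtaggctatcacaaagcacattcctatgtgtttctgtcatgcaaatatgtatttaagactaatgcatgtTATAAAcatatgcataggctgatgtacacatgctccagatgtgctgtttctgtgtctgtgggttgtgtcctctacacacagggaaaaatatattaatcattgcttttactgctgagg
Col1a2: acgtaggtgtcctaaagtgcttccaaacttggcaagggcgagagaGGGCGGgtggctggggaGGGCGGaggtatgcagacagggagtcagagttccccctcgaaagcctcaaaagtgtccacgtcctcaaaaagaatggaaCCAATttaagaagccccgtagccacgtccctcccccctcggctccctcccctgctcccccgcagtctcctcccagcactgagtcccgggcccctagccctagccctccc
Col4a1 and Col4a2: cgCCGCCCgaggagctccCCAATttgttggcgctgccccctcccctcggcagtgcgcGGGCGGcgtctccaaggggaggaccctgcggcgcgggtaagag

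The Col3a1 window held TATAAA 117 bases before the start, no CCAAT or GGGCGG, and had a GC content of 35.2%. The Col1a2 window held GGGCGG at 205 and 188 bases and CCAAT at 109 bases before its RefSeq start, with a GC content of 62.0%. The stretch around the starts of Col4a1 and Col4a2 held CCGCCC 48 and CCAAT 32 bases before the Col4a2 start, and a GC box that begins at 11312812, between the starts. That last box lies in the 78 bases that the windows of both genes share, and the others begin before them. Over 32851 promoter windows of all genes, CCAAT was in 33.8%, GGGCGG in 32.7% and TATAAA in 12.4%. Of the 44 windows of 40 chains, 14 (31.8%) held CCAAT, 24 (54.5%) held GGGCGG and 5 (11.4%) held TATAAA. These matches describe letters and were not tested as binding sites.

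Of the other fibrillar chains, Col5a1 and Col5a2 encode type V collagen, which nucleates fibrils within type I collagen, and Col11a2 and Col27a1 encode minor fibrillar chains best known from cartilage. Col5a2, which lies tail to tail with Col3a1 at a distance of 24.6 kb, averaged 4.89 ± 0.42 FPKM with busulfan plus L.J. and 3.56 ± 0.37 FPKM with busulfan (SD, n = 3 each), a difference of 0.37 (SE 0.11, limma adjusted p = 0.0995). Col5a1 differed by 0.18 (SE 0.18, limma adjusted p = 0.572). Col11a2 and Col27a1 had differences of -0.38 and -0.34 (limma adjusted p of 0.281 and 0.329). None of these 4 chains passed the test.

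Type VI collagen forms beaded filaments around cells from Col6a1, Col6a2 and a longer chain such as Col6a3. Col6a1, the most abundant of the family, stood at 7.5, 10.04 and 13.4 FPKM with busulfan plus L.J., 16.8, 10.4 and 9.11 FPKM with L.J., 9.28, 12.7 and 8.79 FPKM with busulfan and 10.5, 8.04 and 13.6 FPKM in controls. Col6a2 stood at 5.18, 7.83 and 10.2 FPKM with busulfan plus L.J., 15.6, 8.2 and 6.95 FPKM with L.J., 6.11, 9.77 and 6.66 FPKM with busulfan and 9.15, 6.36 and 11.5 FPKM in controls. Both chains overlapped in all groups and differed between busulfan plus L.J. and busulfan by -0.01 and 0.02, with 95% confidence intervals of -0.58 to 0.56 and -0.66 to 0.69 on the log2 scale. The level of Col6a1 relative to Col6a2 stayed between 1.08 and 1.52 over the 12 libraries. Among the longer chains, the differences were 0.29 for Col6a3, 0.45 for Col6a4 and 0.17 for Col6a5, and no type VI chain was called.

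The 5 tested laminin chains had log2 differences of 0.04 to 0.36 between busulfan plus L.J. and busulfan, and none was called. Lamc1, the gamma chain common to most laminins, stood at 6.66, 7.06 and 8.49 FPKM with busulfan plus L.J., 8.06, 7.07 and 8.51 FPKM with L.J., 6.81, 5.91 and 7.27 FPKM with busulfan and 6.35, 5.95 and 7.79 FPKM in controls. Lamb2, a beta chain of vascular and muscle basement membranes, stood at 5.94, 5.83 and 7.16 FPKM with busulfan plus L.J., 6.08, 6.37 and 5.07 FPKM with L.J., 5.17, 5.44 and 3.58 FPKM with busulfan and 5.5, 4.57 and 6.72 FPKM in controls. The groups overlapped for Lamc1, and Lamb2 was higher in every busulfan plus L.J. library than in any busulfan library. The differences between busulfan plus L.J. and busulfan were 0.13 (SE 0.13, limma adjusted p = 0.566) for Lamc1 and 0.36 (SE 0.16, limma adjusted p = 0.208) for Lamb2. Lamb1, the widespread beta chain, stood at 0.93, 1.4 and 1.65 FPKM with busulfan plus L.J., 2.29, 0.98 and 1.39 FPKM with L.J., 1.33, 1.68 and 0.8 FPKM with busulfan and 0.85, 1.07 and 1.61 FPKM in controls. Lama2, the muscle-type alpha chain, stood at 1.89, 2.31 and 2.41 FPKM with busulfan plus L.J., 2.05, 1.44 and 1.43 FPKM with L.J., 1.37, 2.32 and 1.78 FPKM with busulfan and 1.87, 1.64 and 2.33 FPKM in controls. Neither Lamb1, at 0.04, nor Lama2, at 0.19, passed the test, and neither did Lama4, the vascular alpha chain, at 0.22 (limma adjusted p of 0.932, 0.489 and 0.391). The level of Lamb1 relative to Lamc1 ranged from 0.110 to 0.284.

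The ratio of Col4a1 to Lamc1, chosen after the values were seen, was 4.29, 4.74 and 4.06 with busulfan plus L.J., 2.82, 3.53 and 3.22 with L.J., 2.47, 3.59 and 2.45 with busulfan, and 3.99, 3.82 and 3.51 in controls. It was highest in the 3 libraries given both agents, and this is a description with no test.

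Col18a1 and Col15a1 encode the multiplexins, collagens of the basement membrane zone that carry heparan or chondroitin sulfate chains. Col18a1 stood at 5.77, 5.97 and 7.75 FPKM with busulfan plus L.J., 6.57, 5.43 and 6.89 FPKM with L.J., 5.64, 4.42 and 3.56 FPKM with busulfan and 5.4, 5.63 and 6.39 FPKM in controls. The lowest value with both agents was just above the highest busulfan value, and the difference was 0.44 (SE 0.15, limma adjusted p = 0.127). Its gene overlaps Slc19a1 on the other strand, so reads from the shared stretch cannot be assigned to one of them. How long that stretch is was not examined. Col23a1, a membrane-spanning collagen, stood at 1.34, 1.51 and 1.8 FPKM with busulfan plus L.J., 1.19, 1.4 and 1.54 FPKM with L.J., 0.86, 1.44 and 1.09 FPKM with busulfan and 1.23, 1.25 and 1.64 FPKM in controls. Col13a1, of the same class, had the most negative difference of any chain, -0.49 (SE 0.22, limma adjusted p = 0.214). Col8a2, a short-chain collagen of vessel walls and the eye, stood at 1.06, 1.59 and 1.52 FPKM with busulfan plus L.J., 1.31, 1.32 and 1.27 FPKM with L.J., 1.33, 1.09 and 0.93 FPKM with busulfan and 1.29, 1.09 and 1.67 FPKM in controls. The values of Col23a1 and of Col8a2 overlapped between all groups. The FACIT chain Col12a1, found in tendon and muscle, averaged 1.46 ± 0.14 FPKM with busulfan plus L.J. and 0.797 ± 0.23 FPKM with busulfan (SD, n = 3 each), a difference of 0.46 (SE 0.14, limma adjusted p = 0.0897). Among the remaining chains, the differences were 0.18 for the FACIT chain Col16a1, -0.09 for Col20a1 and 0.23 for Col15a1 (limma adjusted p of 0.501, 0.607 and 0.727). Col7a1, the anchoring fibril collagen of skin, stood at 2.24, 1.97 and 2.43 FPKM with busulfan plus L.J., 2.44, 2.21 and 2.07 FPKM with L.J., 4.31, 3.36 and 1.89 FPKM with busulfan and 2.26, 2.11 and 2.65 FPKM in controls. The groups overlapped, and busulfan plus L.J. differed from busulfan by -0.34 (SE 0.19, limma adjusted p = 0.296). None of these chains was called.

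Over all 29 tested chains, 23 were higher and 6 lower with busulfan plus L.J. than with busulfan, with a median log2 difference of 0.19. Of all tested genes 56.9% were higher, with a median of 0.05. An unadjusted p under 0.05 was reached by 10 chains (34.5%), against 23.2% of all genes. In 10 chains every busulfan plus L.J. library exceeded every busulfan library, in none the reverse, and for all genes these shares were 14.1% and 9%. The 6 of these chains that were not called are Col4a2, Col12a1, Col5a2, Col18a1, Col6a3 and Lamb2. By role, 5 of 7 fibrillar chains, 3 of 4 FACIT chains, both basement membrane collagens, 4 of 5 type VI chains and all 5 tested laminin chains were higher. Because 5 of the 29 chains entered through the level of only some groups, these counts describe the tested chains and carry no test. Among them, Col12a1 entered only through busulfan plus L.J., where it was higher, and Col13a1 only through busulfan, where it was higher. Lama4 and Col15a1 reached 1 FPKM with busulfan plus L.J. but not with busulfan, and both are counted as higher with busulfan plus L.J. The same limit holds for such counts in the other comparisons.

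Without busulfan 1, busulfan 2 and L.J. 3, which leaves 1 busulfan library whose spread is assumed to equal that of the others, limma called 0 chains between busulfan plus L.J. and busulfan. It also called 0 when the acinar score entered the fit as a covariate, and 1 when each library was rescaled to an equal sum without the acinar genes. These alternatives were chosen after the data were seen. Over all 25 alternatives, the difference stayed between 0.80 and 1.06 for Col14a1, 0.65 and 0.85 for Col4a1, 0.85 and 1.21 for Col3a1 and 0.56 and 0.78 for Col1a2. It cannot move where only the filter, groups fitted, robust option or replicate block changed, or where an L.J. or control library was left out. The adjusted p passed the threshold in 20 of 25 alternatives for Col14a1, 15 for Col4a1, 10 for Col3a1 and 9 for Col1a2.

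**Figure D3:**
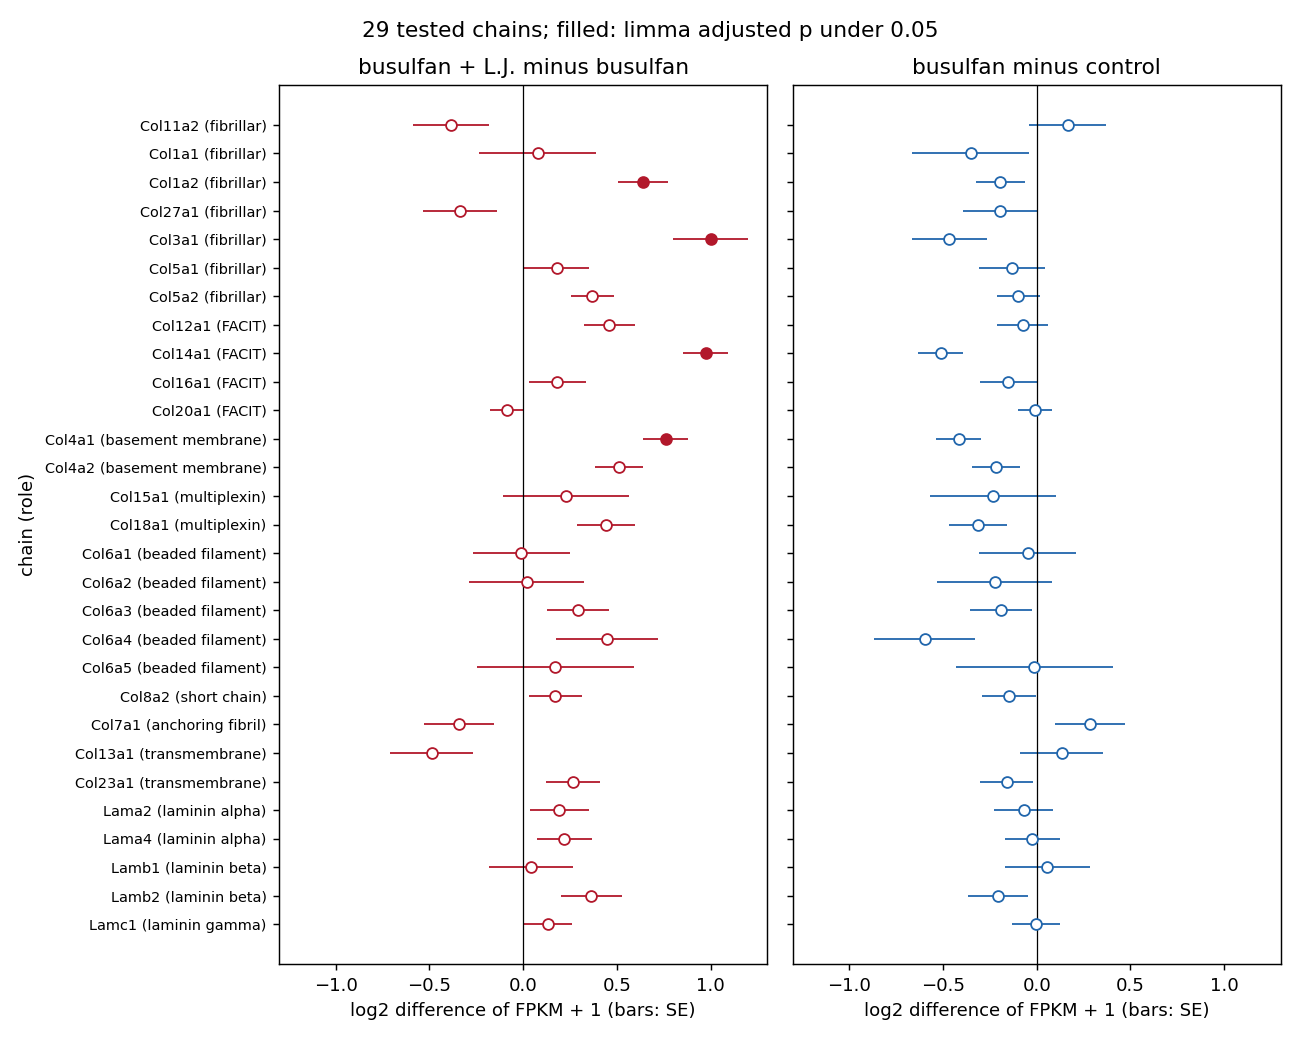
Log2 difference (FPKM + 1) of each of the 29 tested chains with its SE, grouped by role, for busulfan plus L.J. minus busulfan and for busulfan minus control. Filled points mark the 4 chains called between busulfan plus L.J. and busulfan, which lie between 0.64 and 1.00, and no point is filled for busulfan minus control.

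Busulfan compared with control asks what busulfan alone did. No chain passed the test (limma, 0 of 29), 4 had an unadjusted p under 0.05 (12.2% of all genes), and 0.0304% of all genes were called. The chains were lower on balance, at 25 of 29, with a median log2 difference of -0.15, where 44.6% of all genes were higher and the median was -0.03. Every busulfan library lay below every control library for Col14a1, Col4a1 and Col3a1, which is 3 of 29 chains, and for 7.31% of all genes. The reverse held for 0 chains and 5.62% of all genes. Col14a1 averaged 13.7 ± 2.05 FPKM with busulfan and 19.98 ± 2.52 FPKM in controls (SD, n = 3 each), which differ by -0.51 (SE 0.12, limma adjusted p = 0.167). Col4a1 averaged 18.6 ± 2.30 FPKM with busulfan and 25.1 ± 2.31 FPKM in controls, a difference of -0.42 (SE 0.12, limma adjusted p = 0.244). Col3a1 averaged 14.4 ± 0.29 FPKM with busulfan and 20.4 ± 2.89 FPKM in controls, a difference of -0.47 (SE 0.20, limma adjusted p = 0.383). The most negative difference belonged to Col6a4, at -0.60 (SE 0.27, limma adjusted p = 0.409). Without busulfan 3, limma called 2 chains. Endothelial markers were lower with busulfan in 12 of 12 cases and smooth muscle markers in 8 of 8, with 0 called by limma in either list and 7 and 5 at an unadjusted p under 0.05. Fibroblastic markers other than the chains were mixed, with 8 of 13 tested lower and 5 higher. Hepatocyte markers were lower in 8 of 8 cases and tested adipocyte markers in 5 of 5. None of these was called by limma, and 7 hepatocyte and 0 adipocyte markers had an unadjusted p under 0.05. Acinar markers were higher in 12 of 12 cases, with a median log2 difference of 6.53. By limma 0 of them were called, and all 12 had an unadjusted p under 0.05. The part of these cell types in the values of the chains was not tested. This comparison and the preceding one share the busulfan libraries, so a library that is low in that group moves both.

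L.J. compared with control asks what L.J. did without busulfan. No chain was called by limma, 2 had an unadjusted p under 0.05 (8.91% of all genes), and 0.0304% of all genes were called. Of the 29 chains 20 were higher, where 54% of all genes were. The median of the chains was 0.09 on the log2 scale, and -0.03 without control 2. Col6a5 was tested only because of its mean with L.J., and Lama4 only because of its means in the groups given L.J. Both are counted among the higher chains, so their places there are no support. Col3a1 averaged 30.7 ± 7.22 FPKM with L.J. and 20.4 ± 2.89 FPKM in controls, and its 3 L.J. libraries lay above all controls, as did those of 11.4% of all genes, with a difference of 0.55 (SE 0.20, limma adjusted p = 0.548). Col1a2 averaged 35.6 ± 4.68 FPKM with L.J. and 27.3 ± 4.09 FPKM in controls, and the groups overlapped, with a difference of 0.37 (SE 0.13, limma adjusted p = 0.548). Col14a1 and Col4a1 differed by 0.03 and -0.01 on the log2 scale, with 95% confidence intervals of -0.24 to 0.29 and -0.27 to 0.26. Col20a1, a FACIT chain, was the only chain with every L.J. library below every control library (7.33% of all genes), at -0.09. Its highest L.J. value, 2.76 FPKM, and its lowest control value, 2.77 FPKM, differed only in the last deposited decimal.

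Whether L.J. acted differently with and without busulfan was tested as the difference of both differences. By limma no chain passed, 4 had an unadjusted p under 0.05 (11.5% of all genes), and 0% of all genes were called. The interaction was above 0 for 17 of 29 chains and 53.4% of all genes. It was 0.95 (SE 0.17, limma adjusted p = 0.129) for Col14a1, with a 95% confidence interval of 0.57 to 1.32, and 0.77 (SE 0.17, limma adjusted p = 0.192) for Col4a1. For Col3a1 and Col1a2 it was 0.45 and 0.27, with intervals of -0.17 to 1.07 and -0.14 to 0.68. The difference of the response to L.J. between spleens with and without busulfan was therefore not shown for any chain in this fit. With library weights limma called 1 chain, and without busulfan 3 it called 1.

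Spleens given both agents were also set against L.J. alone and against controls. Between busulfan plus L.J. and L.J. alone no chain was called by limma, 3 had an unadjusted p under 0.05 (5.61% of all genes) and 0% of all genes were called. Higher were 13 of 29 chains and 51.2% of all genes. The groups did not overlap for Col12a1, Col14a1, Col4a1 and Col4a2, which were higher, and for Col11a2 and Col13a1, which were lower, against 7.76% and 7.91% of all genes. Col12a1 was tested only because of its mean with both agents, 1.46 FPKM, so its place among the higher chains is no support. Col14a1 averaged 27.8 ± 1.59 FPKM with both agents and 20.3 ± 0.83 FPKM with L.J. (SD, n = 3 each), a difference of 0.43, and Col4a1 differed by 0.35 (SE 0.12 each, limma adjusted p = 0.867 each). Between busulfan plus L.J. and control no chain was called by limma, 8 had an unadjusted p under 0.05 (19% of all genes), and 0.0609% of all genes were called. Here 19 of 29 chains and 56.1% of all genes were higher, and the groups did not overlap for 7 chains that were higher and 2 that were lower, against 19.4% and 15.7% of all genes. Col12a1 is again among the higher ones. So is Lama4, which averaged 1.17 FPKM with both agents and 0.897 FPKM in controls. Both were tested without reaching 1 FPKM in controls, so their places among the higher chains are no support. The differences were 0.46 (SE 0.12, limma adjusted p = 0.160) for Col14a1 and 0.34 (SE 0.12, limma adjusted p = 0.201) for Col4a1. A fit of the compared groups alone called 2 chains, and library weights called 5.

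The FPKM summed over all 55 chains was 230.7, 256.5 and 289 with busulfan plus L.J., 291, 248 and 222 with L.J., 175, 202 and 181 with busulfan, and 224, 192 and 261 in controls. The busulfan sums lay below all busulfan plus L.J. and L.J. sums and overlapped the controls. Busulfan plus L.J. averaged 259 ± 29.2 FPKM and busulfan 186 ± 14.1 FPKM (SD, n = 3 each), a ratio of 1.39. The exact permutation test of that difference gave p = 0.1, the smallest it can give with 3 against 3, and p = 0.5 after adjustment over 5 pairs of groups. Busulfan averaged 0.824 of the control sum of 225 ± 34.6 FPKM (exact permutation p = 0.2, adjusted 0.5). The other exact permutation p-values were 0.8 for busulfan plus L.J. against L.J., 0.3 for busulfan plus L.J. against control and 0.5 for L.J. against control. In all libraries the chains took 0.0302% to 0.0553% of the deposited FPKM.

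The chains varied unevenly within groups. The pooled within-group SD of log2(FPKM + 1) was 0.58 for Col6a5, 0.46 for Col15a1, 0.44 for Col1a1 and 0.43 for Col6a2, and 0.14 for both Col14a1 and Col4a1. For 11 tested chains, among them Col1a1, Col1a2, Col3a1, Col6a1, Col6a2 and Col6a3, the highest library of its group was L.J. 1, control 3 and busulfan plus L.J. 3. Col1a1 was at 37.7 FPKM in L.J. 1 and at 15.9 FPKM in L.J. 3, a gap wider than that between any group means of this chain. L.J. 1 was the highest of all 12 libraries for 10 of the 29 chains, and busulfan 3 the lowest for 13. The shares of all genes for these ranks were not counted, and busulfan 3 also had the fewest genes at 1 FPKM or more, 12249. Col6a5, a type VI chain of skin and lung, spanned a 33.5-fold range over the 12 libraries.

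**Figure D4:**
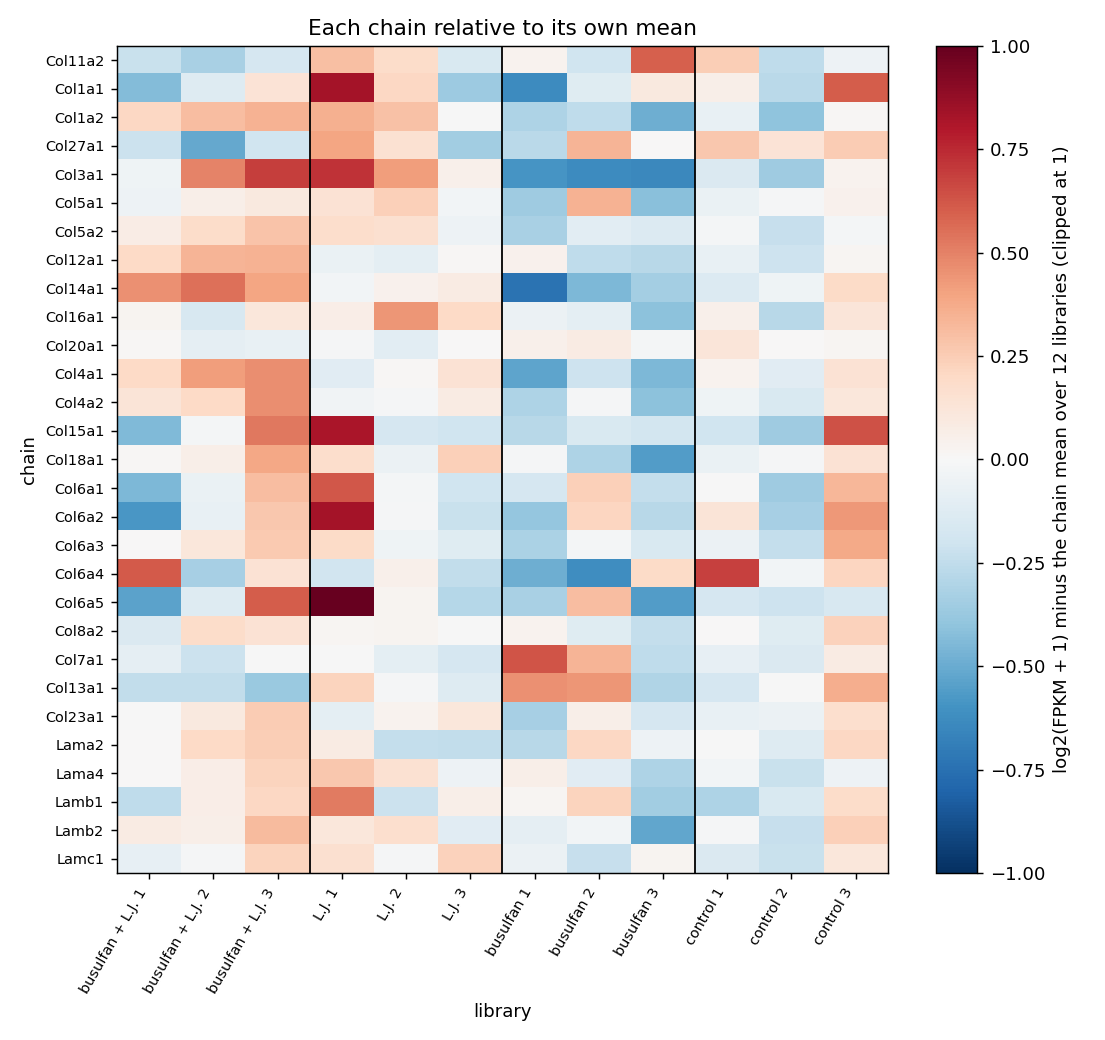
Level of each tested chain in each library on the log2(FPKM + 1) scale, as the difference from the mean of that chain over all 12 libraries, with libraries ordered busulfan plus L.J., L.J., busulfan, control. Busulfan 3 holds the lowest value of 13 of the 29 chains and L.J. 1 the highest of 10. The shares of all genes for these ranks were not counted.

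Genes that process, bind or sense the chains were examined as 5 lists. Over all tested genes, 56.9% were higher with busulfan plus L.J. than with busulfan, the median log2 difference was 0.05, 1.66% were called and 23.2% had an unadjusted p under 0.05, and the counts of each list stand beside these shares. Of 27 tested genes of collagen processing, 21 were higher with busulfan plus L.J. than with busulfan, the median difference on the log2 scale was 0.15, 2 were called and 7 had an unadjusted p under 0.05. P3h2, a prolyl 3-hydroxylase that modifies type IV collagen, measured 8.28, 8.84 and 10.3 FPKM in the busulfan plus L.J. libraries, against 4.62, 5.08 and 3.95 FPKM in the busulfan libraries, a difference of 0.87 (SE 0.14, limma adjusted p = 0.0372). Pcolce, which enhances the cleavage of fibrillar procollagens, differed by 0.69 (SE 0.15, limma adjusted p = 0.0487). Serpinh1, the collagen chaperone HSP47, had a difference of 0.64 (SE 0.17, limma adjusted p = 0.0707) and was not called. Of 31 tested basement membrane and matrix partners, 22 were higher with a median of 0.17, 10 had an unadjusted p under 0.05, and 3 were called: the elastic fibre protein Fbln5 at 0.58 (SE 0.10, limma adjusted p = 0.0377), the laminin and type IV collagen linker Nid2 at 0.65 (SE 0.12, limma adjusted p = 0.0395), and the microfibril protein Fbn1 at 0.60 (SE 0.13, limma adjusted p = 0.0478).

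Of 17 tested receptors of collagen and laminin, 11 were higher with a median of 0.19, 6 had an unadjusted p under 0.05, and 1 was called. Itga1, the integrin chain that binds type IV collagen, measured 8.56, 9.72 and 9.17 FPKM in the busulfan plus L.J. libraries, against 4.56, 5.34 and 5.49 FPKM in the busulfan libraries, with no overlap and a difference of 0.73 (SE 0.10, limma adjusted p = 0.0195). Itga2, which binds fibrillar collagen, and the leukocyte receptor Lair1 differed by 0.46 and -0.51 and were not called. Of 14 tested matrix proteases and inhibitors 11 were higher, with a median of 0.20, and limma called 0, with 5 at an unadjusted p under 0.05. The neutrophil collagenase Mmp8 and the gelatinase Mmp9 had differences of -2.39 and -1.78 (limma adjusted p of 0.0706 and 0.0807). Of 21 tested genes of TGF-beta signalling, a main inducer of collagen genes, 15 were higher (median 0.08), and limma called 0, with 5 at an unadjusted p under 0.05, a share near that of all genes. The receptor Tgfbr2 and the transcription factor Smad3 differed by 0.50 and 0.39 (limma adjusted p of 0.0689 each).

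In busulfan compared with control, none of the 5 lists held a called gene by limma. Higher were 11 of 27 processing genes, 10 of 31 matrix partners, 5 of 17 receptors, 6 of 14 proteases and inhibitors and 6 of 21 TGF-beta genes, and an unadjusted p under 0.05 was reached by 5, 8, 5, 3 and 2 of them, where 44.6% of all genes were higher and 12.2% reached that p. The matricellular protein Postn had a difference of -1.06 (SE 0.20, limma adjusted p = 0.115). In L.J. compared with control, limma called none of these genes either, and 1, 1, 1, 0 and 0 of the same lists had an unadjusted p under 0.05 (8.91% of all genes).

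Markers of the cells that make the chains were set beside them. With busulfan plus L.J. compared with busulfan, 11 of 12 endothelial and sinusoidal markers were higher, the median difference on the log2 scale was 0.50, and 5 were called, the vessel and sinus genes Stab2, Tek, Stab1, Kdr and Mmrn2, at differences of 0.58 to 0.99. The summed level of all 12 was 241.5, 210.5 and 276 FPKM with busulfan plus L.J., 234, 226 and 219 FPKM with L.J., 189, 235 and 172 FPKM with busulfan, and 262, 216 and 266 FPKM in controls. Of 13 tested fibroblastic markers other than the chains 8 were higher, with a median of 0.07, and 1 was called, the stromal transcription factor Tcf21 at 0.78 (SE 0.16, limma adjusted p = 0.0433). The summed level of the 14 fibroblastic markers listed ranged from 668 to 846 FPKM with busulfan plus L.J. and from 748 to 822.5 FPKM with busulfan, and the groups overlapped. Of the 12 genes called in these lists, limma called 0 without busulfan 1, busulfan 2 and L.J. 3 and 0 with the acinar score as covariate, and Itga1 and Stab2 when the libraries were rescaled without acinar genes. Their differences stayed above 0 in all 3 alternatives. The part of these cell types in the results for the chains was not tested.

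Markers of other tissues were set against the same shares of all genes. Smooth muscle markers were higher in 6 of 8 cases with busulfan plus L.J. than with busulfan, and limma called 0, with 2 at an unadjusted p under 0.05. Their summed level was 208 to 284 FPKM with busulfan plus L.J. and 177 to 215 FPKM with busulfan. Adipocyte markers summed to 10.6, 91.8 and 66.5 FPKM with busulfan plus L.J., and to 3.39, 46.3 and 2.55 FPKM with busulfan. All 5 tested adipocyte markers were higher, and limma called 0, with 0 at an unadjusted p under 0.05. Mesothelial markers, of the splenic capsule, summed to 8.85, 14.9 and 25.3 FPKM with busulfan plus L.J. and to 16.7, 19.7 and 5.79 FPKM with busulfan, and 4 of 5 were higher with none called by limma and 0 at an unadjusted p under 0.05. Acinar markers were lower in 12 of 12 cases, with a median of -5.30, none called by limma and 10 at an unadjusted p under 0.05. Against control, both tested kidney tubule markers, Kap and Slc34a1, were called lower with busulfan plus L.J., and Slc34a1 was called lower with L.J. and with busulfan. The 8 kidney markers summed to 3.09 to 8.74 FPKM with busulfan against 22.2 to 47.8 FPKM in controls. The 8 hepatocyte markers summed to 40.2 to 66.0 FPKM with busulfan against 80.3 to 152 FPKM in controls, and 4 of 8 were higher with busulfan plus L.J. than with busulfan. The part of these tissues in the results for the chains was not tested beyond the acinar genes.

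**Figure D5:**
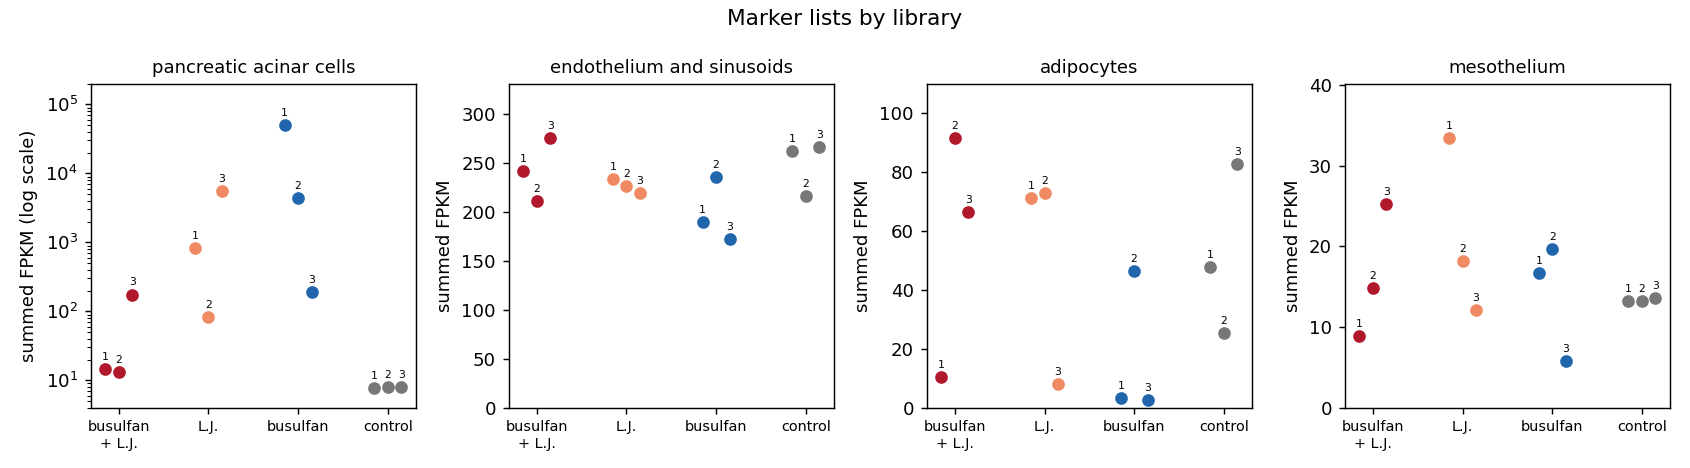
Summed FPKM of marker genes in each library (points numbered by replicate), by group in the order busulfan plus L.J., L.J., busulfan and control, with the acinar sum on a log axis. The acinar sum runs from 7.68 FPKM in a control library to 50350 FPKM in busulfan 1, and the endothelial sum lies between 172 and 276 FPKM.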

How the data were processed

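Total RNA from 12 spleen samples was sequenced, 3 libraries in each of 4 groups. Per the labels' protocols, tissue was frozen in liquid nitrogen and RNA was taken with Trizol and a column kit. The authors deposited 1 table of FPKM per gene and library, rounded to 2 decimals. Bowtie 0.12.2 and mm10 are listed in the submitters' processing notes, without their roles. The counting method, annotation and strand setting are not given in these sources. Columns were assigned to samples by their names.

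Members and gene lists were chosen with earlier results of these data known. A gene was tested if any group averaged 1 FPKM or more (13138 genes), log2(FPKM + 1) was fitted with limma 3.58.1 in R 4.3.3 (trend, robust, 1 mean per group, all 12 libraries), and p-values were adjusted by Benjamini-Hochberg over these genes in each of 6 comparisons, with a threshold of 0.05. A pseudocount of 1 FPKM understates differences of low genes. Sums over the chains were compared by exact permutation tests. Any chain could be named; values per library are given for called chains, the markers, partner chains and the most abundant chain of each role, and other genes are named where called or among the 3 smallest p-values of their list.

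Sequencing depth is unknown: among 2219 sparse genes the most common ratio between libraries held 4.08% to 5.71% of ratios (within 0.03 on the log2 scale), so the deposited FPKM gave no read numbers, no count test was run and no counting interval can be given. Alternatives changed the scaling, pseudocount, filter, groups in the fit, replicate block, library weights and robust option, left out each library, and treated the acinar genes in 3 ways, which were added after the data were seen. RefSeq promoters (GRCm38.p6) and GENCODE coordinates were used. Figures were drawn with matplotlib 3.10.9.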

Additional observations from a re-analysis of the deposited data

How the results depend on the processing

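Between busulfan plus L.J. and busulfan, 4 chains were called. The count was 1 with no filter on low values, 0 in a fit of the compared groups alone and 7 with library weights. Of the alternatives chosen after the data were seen, it was 0 without the 3 libraries of highest acinar score, 0 with that score as a covariate and 1 after rescaling without acinar genes. Leaving out 1 library at a time gave 0 to 6 calls. There were 0 without busulfan plus L.J. 1 or without busulfan plus L.J. 2, 1 without busulfan plus L.J. 3, L.J. 2 or control 1, and 2 without L.J. 3, busulfan 2, control 2 or control 3. Quantile or median-of-ratios scaling, pseudocounts of 0.1 and 5, a filter at 5 FPKM and the fit without the robust option each gave 4.

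For busulfan plus L.J. against control, with 0 calls, the fit of the compared groups alone gave 2 and library weights gave 5, and leaving out 1 library gave 0. For busulfan against control, leaving out 1 library gave 0 to 2, the 2 without busulfan 3. For the interaction, library weights gave 1 and leaving out 1 library gave 0 to 1, the 1 without busulfan 3. The other comparisons kept 0 calls in 25 of 25 alternatives. The difference of a chain between busulfan plus L.J. and busulfan was fixed in some alternatives. These changed only the filter, groups fitted, robust option or replicate block, or left out an L.J. or control library. The differences of the 4 called chains kept their sign in every alternative, those included. Medians over the tested chains did not all keep theirs. For L.J. against control the median was 0.09, and -0.03 without control 2. For busulfan plus L.J. against L.J. it was -0.01, with a range of -0.08 to 0.05. For busulfan plus L.J. against control it was 0.10, and -0.0046 with no filter. The cause of these changes was not tested.

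Same-numbered libraries correlated at -0.307 to 0.325 over 18 pairs (8 over 0.1). Differently numbered ones correlated at -0.401 to 0.372 over 36 pairs (11 over 0.1). The labels name no pairing. These overlapping ranges, of deviations from means of 3 libraries, cannot decide whether same-numbered libraries are paired. With the replicate block, 2 chains were called between busulfan plus L.J. and busulfan. The group means of the summed chains, leaving out 1 library, ranged from 244 to 273 FPKM (busulfan plus L.J.), 235 to 269 (L.J.), 178 to 191 (busulfan) and 208 to 242 (control). Adjusted p-values over the alternatives ranged from 0.00108 to 0.163 for Col14a1, 0.0105 to 0.177 for Col4a1, 0.0165 to 0.224 for Col3a1 and 0.0184 to 0.231 for Col1a2. The sequencing depth is unknown, so its part in these limits was not tested.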
